A study of Mus musculus with 2 samples.

Results

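The chemokines Cxcl1, Cxcl2 and Cxcl3 and their receptor Cxcr2 were followed by symbol through 2 single-cell libraries of mouse liver. All 4 genes were present among the 28200 genes that the 2 count matrices list together. CXCL1, CXCL2 and CXCL3 are secreted CXC chemokines of the ELR type, and they draw neutrophils out of the blood by binding CXCR2, a G protein-coupled receptor on the neutrophil surface. In the liver, Kupffer cells (the resident macrophages of the sinusoids), monocyte-derived macrophages, endothelial cells, stellate cells and hepatocytes are all known to make one or more of these ligands when inflammatory signals such as interleukin-1, tumour necrosis factor or bacterial products activate the transcription factor NF-kB. Their mRNAs are known to be unstable, so their levels follow recent transcription.

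The library labelled knockout carried the genotype Cdh5-CreERT2; Ctgffl/fl, in which the endothelial Cdh5 promoter drives a Cre recombinase that tamoxifen switches on, and the Cre acts on floxed alleles of Ctgf (current symbol Ccn2, connective tissue growth factor). The library labelled control carried Ctgffl/fl alone, and both mice had undergone partial inferior vena cava ligation (pIVCL), a surgical model of hepatic congestion, and had the same batch label. The mice were male littermates by the labels, and no age, tamoxifen schedule or time after ligation was given. Livers were dissociated with pronase and collagenase, and the suspensions were depleted of hepatocytes, red cells and dead cells, so shares describe the suspension rather than the organ. Each label had 1 library from 1 mouse, so no difference below has a replicate check or a test, and every interval is a 95% interval for counting error only.

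Titles and genotype labels disagree, since the library with the Cre genotype is titled as the control, and the values below follow the genotype. Ccn2, the targeted gene, was at 4.75 CPM (counts scaled to a total of 1000000 per gate) in endothelial-gated cells of the library labelled knockout, against 901 CPM in the library labelled control, which goes with the genotype labels. In stellate-gated cells Ccn2 was at 1011 CPM in the library labelled knockout and 1023 CPM in the library labelled control. The difference was not confined to the endothelial gate. Mesothelial-gated cells held Ccn2 at 5.55 CPM (2 counts) in the library labelled knockout and 549 CPM (548 counts) in the library labelled control. Kupffer-gated cells held 5.56 and 105 CPM, and hepatocyte-gated cells 0.291 and 20.4 CPM. The cause of the differences outside the endothelial gate was not tested. The matrices held 129802501 and 106208933 counts over 10000 barcodes each, of which 8296 and 7492 cells were kept in the libraries labelled knockout and control. Median counts per kept cell were 9070 in the library labelled knockout and 7761 in the library labelled control, and 2 barcode sequences occurred in both libraries. Barcodes set aside for mitochondrial counts made up 11.8% of the library labelled knockout and 20.8% of the library labelled control.

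Upstream of their start sites the 3 ligand genes share a short arrangement that the receptor gene lacks, and it is shown because NF-kB is the known inducer of the family. RefSeq promoter windows of 250 bases before and 50 after each start were used (GRCm38.p6, an older build than that of the count files), and the ligand genes lie on the plus strand of chromosome 5. A search for runs of 8 or more letters held by all 3 ligand windows found 3 of them. The first, GGGAATTTCCC, contains the sequence that NF-kB is known to bind, the second, ATAAAAGG, is of the TATA type, and the third lay after the start and is not shown. Capitals mark the first and second runs at chr5:90891164-90891228 (Cxcl1), chr5:90903792-90903859 (Cxcl2) and chr5:90786018-90786089 (Cxcl3).
Cxcl1: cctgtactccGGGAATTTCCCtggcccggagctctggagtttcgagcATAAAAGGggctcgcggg
Cxcl2: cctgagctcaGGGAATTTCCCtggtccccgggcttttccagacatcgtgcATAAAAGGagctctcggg
Cxcl3: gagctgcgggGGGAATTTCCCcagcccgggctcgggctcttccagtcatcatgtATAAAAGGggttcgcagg
The first base of GGGAATTTCCC lay 71 bases before the start in Cxcl1, 97 in Cxcl2 and 73 in Cxcl3, with 26, 29 and 33 bases between the 2 runs. Searched on both strands of 32851 windows, GGGAATTTCCC was found in 14 (0.0426%), ATAAAAGG in 577 (1.76%) and both in 3, which are these genes. The windows searched did not cover every chromosome. The Cxcr2 window held neither. None of the 10 NF-kB response genes, and none of the 5 other CXCR2 ligand and receptor genes, with a window held GGGAATTTCCC. The runs were chosen because the ligand windows share them, and a match of letters is a description of the sequence, not evidence that a factor is bound.

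Across all kept cells, the ligands and the receptor differed between the libraries in opposite directions. Cxcl2 stood at 26.6 CPM (2873 counts) in the library labelled knockout, against 64.4 CPM (5284 counts) in the library labelled control, a log2 ratio of -1.27 (-1.34 to -1.21). Cxcl1 stood at 7.99 CPM in the library labelled knockout and 11.3 CPM in the library labelled control (log2 ratio -0.51, -0.64 to -0.37). Cxcl3 was rare, with 38 counts in 6 cells of the library labelled knockout and 118 counts in 23 cells of the library labelled control. Cxcr2 stood at 19.9 CPM in the library labelled knockout, against 6.29 CPM in the library labelled control (log2 ratio 1.66, 1.52 to 1.80). All 4 directions held under 4 alternatives: stricter filter, looser filter, doublets kept, and the highest cell of each library left out. In these pooled values, fewer cells of a type and less RNA per cell cannot be told apart, so each gene is given by cell type below.

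Cells were assigned to types by their own markers, and none of the 4 genes was used as a marker. The plot of levels by gated type shows the receptor highest in neutrophils by a wide margin, Cxcl1 and Cxcl2 spread over several types, and Cxcl3 near 0 in most.

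**Figure D1:**
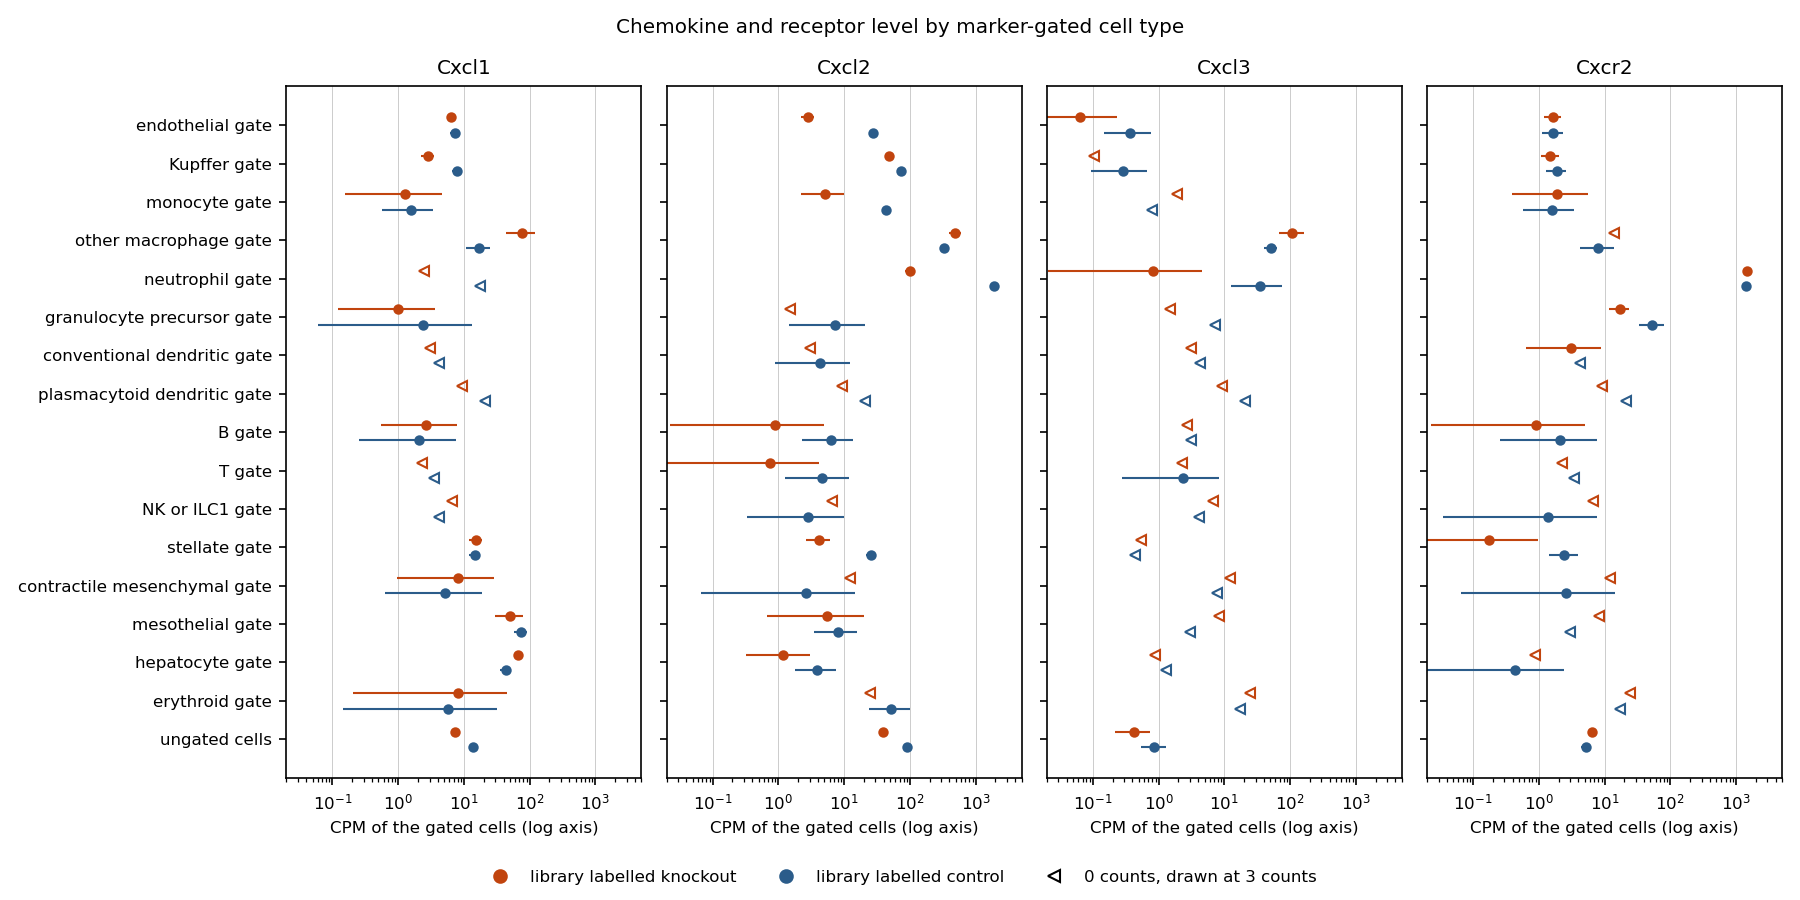
CPM of Cxcl1, Cxcl2, Cxcl3 and Cxcr2 (log axes) in each marker-gated cell type with at least 10 cells in both libraries and in ungated cells; points are summed counts of the gated cells, bars are 95% Poisson intervals (counting error only), and open triangles are types with 0 counts, drawn at 3 counts. Cxcr2 exceeds 1400 CPM in the neutrophil gate of both libraries, Cxcl2 is highest in the other macrophage and neutrophil gates, and Cxcl1 is highest in the hepatocyte, mesothelial and other macrophage gates.

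Cxcl2, the ligand with the most counts, was held mainly by Kupffer-gated cells and by cells that the gate left unassigned. Kupffer-gated cells held 48.4% of Cxcl2 counts in the library labelled knockout (46.5 to 50.2%) and 24.5% in the library labelled control (23.3 to 25.7%). They were 19.0% and 16.3% of the kept cells and held 26.5% and 21.4% of the counts of all genes. The Kupffer shares of Cxcl2 moved with the gate and with clustering, as given in the closing section on processing. Ungated cells held 39.2% of the Cxcl2 counts in the library labelled knockout and 43.0% in the library labelled control, with 26.5% and 31.1% of the counts of all genes. They made up 15.6% and 25.9% of kept cells, and 70.6% and 54.1% of them had 3 or more markers on of 2 types. The Cxcl2 of such cells could not be given to one source. Ungated cells that scored highest as Kupffer cells held 483 of 1125 counts in the library labelled knockout and 673 of 2273 in the library labelled control. Those that scored highest as other macrophages held 55 and 717, and as endothelial cells 367 and 383. The 717 counts lay in 245 cells, of which 75 had 2 such types, beside 486 counts in the other macrophage gate. Expression was uneven: the top 1% of all cells held 51.1% of the Cxcl2 counts in the library labelled knockout and 38.3% in the library labelled control.

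**Figure D2:**
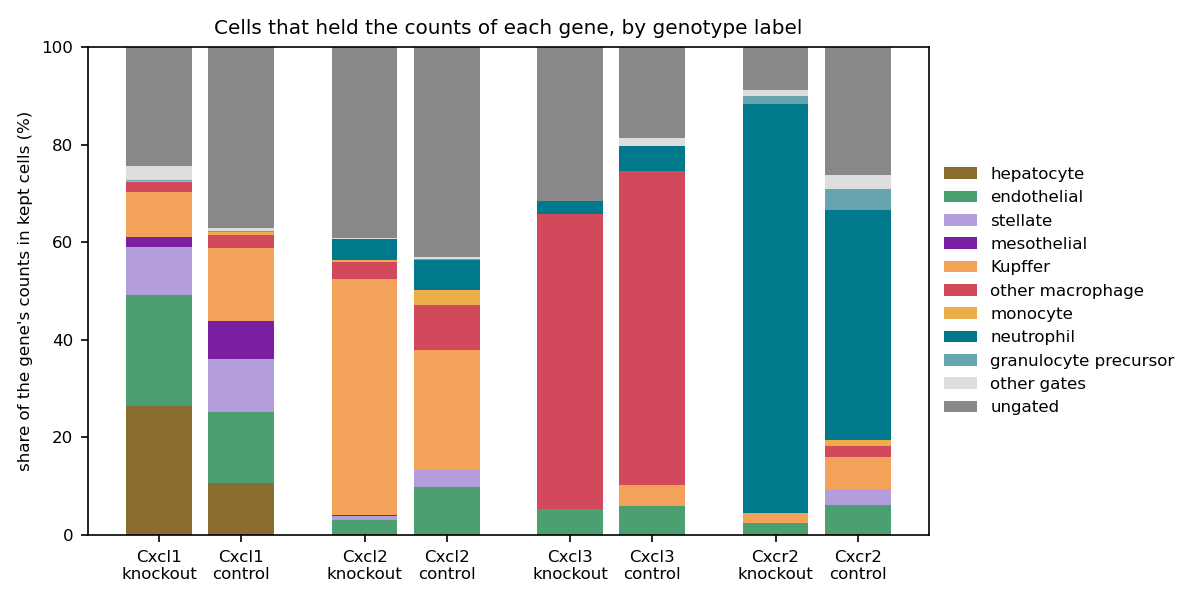
Share of each gene's counts (%, stacked to 100) held by each marker-gated cell type, with the library labelled knockout left of the library labelled control for each gene. The Kupffer gate is the largest gated source of Cxcl2, the other macrophage gate holds 60.5% and 64.4% of Cxcl3, and the neutrophil gate holds 83.8% and 47.3% of Cxcr2.

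In Kupffer-gated cells, which are defined by Clec4f, Vsig4, Timd4, Cd5l, C6, Folr2, Slc40a1 and Marco, Cxcl2 was at 48.6 CPM in 1573 cells of the library labelled knockout and 73.6 CPM in 1221 cells of the library labelled control. The log2 ratio was -0.60 (-0.71 to -0.49). A Cxcl2 count was present in 15% of these cells in the library labelled knockout and 20.8% in the library labelled control, or 6.68% and 9.66% when every cell was thinned to 3000 counts. The direction rested on where the Kupffer population was bounded. With Leiden clusters in place of the gate the log2 ratio was 0.069, and among the 231 and 159 Kupffer-gated cells of the libraries labelled knockout and control with no marker of another myeloid type on, Cxcl2 was at 54.7 CPM in the library labelled knockout and 38.5 CPM in the library labelled control (log2 ratio 0.51). The share of these cells with a count was still lower in the library labelled knockout, at 9.96% (23 cells) against 12.6% (20 cells) in the library labelled control. One Kupffer-gated cell of the library labelled control held 207 of the 1294 counts, and without the highest cell of each library the log2 ratio was -0.40.

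The highest Cxcl2 level outside neutrophils was in the other macrophages, gated on Gpnmb, Trem2, Spp1, Mmp12, Ms4a7 and Cx3cr1, genes known from scar-associated and monocyte-derived macrophages. The 15 such cells of the library labelled knockout reached 490 CPM (401 to 594), from 3 cells with 69, 31 and 4 counts. The 119 such cells of the library labelled control reached 327 CPM (298 to 357), with a count in 70 of them. Cells with Cxcl2 were 3 of 15 in the library labelled knockout and 58.8% of 119 in the library labelled control, so level and share ran in opposite directions. Without the highest cell of each library the levels were 204 and 304 CPM in the libraries labelled knockout and control. These macrophages made up 0.181% of kept cells in the library labelled knockout and 1.59% in the library labelled control, and they held 3.62% and 9.20% of all Cxcl2 counts.

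Monocyte-gated cells (Ly6c2, Ccr2, Chil3 and other markers) held Cxcl2 at 5.12 CPM in the library labelled knockout, from 8 counts in 3 of 149 cells, and at 43.5 CPM in the library labelled control, from 166 counts in 57 of 619 cells. The log2 ratio was -3.09 (-4.32 to -2.07), and it was -1.17 with Leiden clusters. The monocytes themselves were 1.80% of kept cells in the library labelled knockout and 8.26% in the library labelled control.

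Endothelial cells, the cell type in which the Cre is active, held less Cxcl2 in the library labelled knockout. The gate held 2.79 CPM in 3626 cells of the library labelled knockout and 27.6 CPM in 2051 cells of the library labelled control (log2 ratio -3.30, -3.65 to -2.97), with a count in 0.910% and 6.87% of cells. The 30 myeloid markers summed to 749 CPM in this gate in the library labelled knockout and 1421 CPM in the library labelled control. Among the endothelial-gated cells with no myeloid marker on, 1002 in the library labelled knockout and 826 in the library labelled control, Cxcl2 was at 0.640 CPM (0.174 to 1.64) and 4.16 CPM (2.67 to 6.19). B cells, which are not known for Cxcl2, held it at 0.896 CPM in the library labelled knockout (0.0227 to 4.99) and 6.28 CPM in the library labelled control (2.30 to 13.7). T cells held it at 0.756 and 4.65 CPM. The endothelial level without myeloid markers lay within these B cell intervals, which are wide since they rest on 1 and 6 counts. Its log2 ratio was -2.70, beside -2.81 (-8.33 to 0.23) in B cells and -2.62 (-8.24 to 0.72) in T cells. The part of free myeloid RNA in the endothelial counts was not tested. Stellate cells without myeloid markers had 0 Cxcl2 counts in 125 cells of the library labelled knockout and 4 counts in 149 cells of the library labelled control.

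Neutrophil-gated cells held Cxcl2 as well as its receptor, and a single cell set the comparison between the libraries. A count was present in 27 of 180 cells (15%) in the library labelled knockout and in 6 of 34 cells (17.6%) in the library labelled control. The level was 101 CPM in the library labelled knockout and 1896 CPM in the library labelled control (log2 ratio -4.24), but 314 of the 328 counts in the library labelled control came from 1 cell. Without the highest cell of each library the levels were 82.3 CPM in the library labelled knockout and 82.9 CPM in the library labelled control, a log2 ratio of -0.011. That cell had 4105 counts in all, with at least 1 count of 6 of the 8 neutrophil markers and of none of the 8 Kupffer markers. It held 25 of the 7319 S100a8 counts of the neutrophil gate in the library labelled control. It had 0 Cxcr2 counts, 47 of Ptgs2 (cyclooxygenase 2), 38 of Il1b, 34 of Ccl3 and 25 of Tnf. These were all 47 Ptgs2 counts and 34 of the 35 Ccl3 counts of the 34 neutrophils in the library labelled control.

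**Figure D3:**
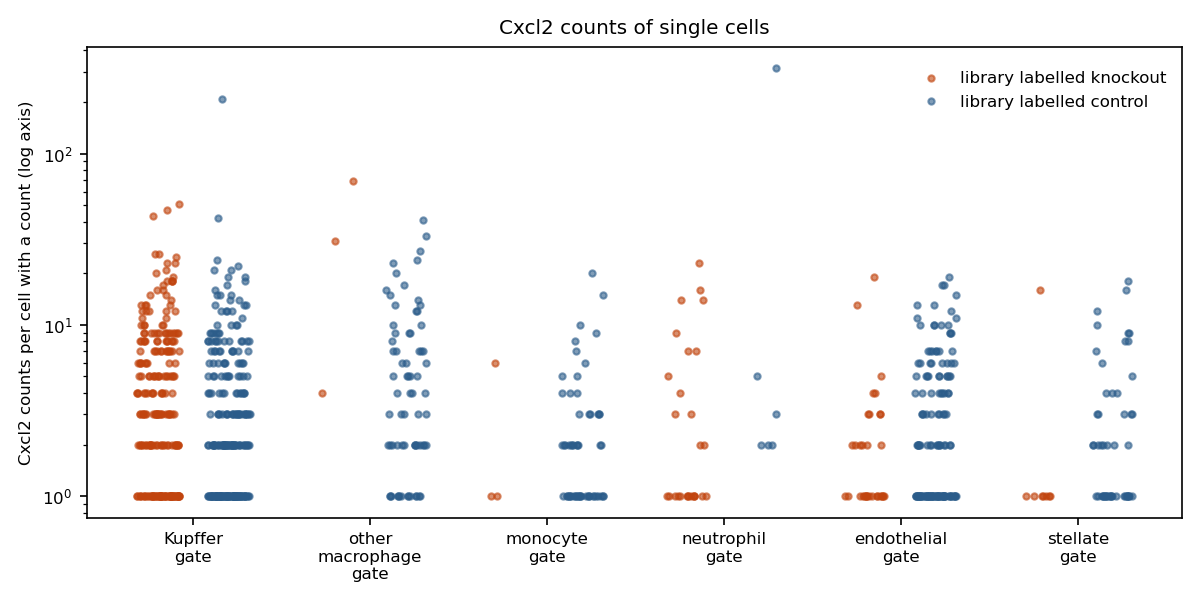
Cxcl2 counts of every cell with at least 1 count (log axis) in 6 marker-gated types, with the library labelled knockout left of the library labelled control within each type. Most cells hold under 10 counts, and the 2 highest cells belong to the library labelled control, 1 neutrophil with 314 counts and 1 Kupffer cell with 207.

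Cxcl1 was spread over another set of types, with most of its gated counts outside the myeloid gates. Ungated cells held 24.4% of Cxcl1 counts in the library labelled knockout and 37.2% in the library labelled control, the largest holder there. Hepatocyte-gated cells held 26.4% of Cxcl1 counts in the library labelled knockout and 10.6% in the library labelled control, endothelial-gated cells 22.8% and 14.6%, stellate-gated cells 9.87% and 10.8%, and Kupffer-gated cells 9.29% and 14.9%. Under the stricter cell filter the hepatocyte shares were 8.33% in the library labelled knockout and 6.50% in the library labelled control, which removed most of their difference. No Cxcl1 count was found in 180 neutrophils of the library labelled knockout, which allows a share of up to 1.67% of cells with a count, or in 34 of the library labelled control, which allows up to 8.82%. T cells, NK cells or ILC1, and conventional and plasmacytoid dendritic cells also had 0 counts in both libraries.

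The hepatocytes that remained after depletion held Cxcl1 at 66.1 CPM in 82 cells of the library labelled knockout and 43.1 CPM in 251 cells of the library labelled control (log2 ratio 0.62, 0.27 to 0.97). A count was present in 40.2% of these cells in the library labelled knockout and 15.5% in the library labelled control, but in 7.32% and 7.17% after thinning to 3000 counts, and the thinned log2 ratio was -0.049. Depth differed in parallel: 33 of 82 hepatocytes in the library labelled knockout and 17 of 251 in the library labelled control held over 20000 counts. The median log2 ratio of all genes measured in this gate was -0.66, and TMM scaling moved the Cxcl1 ratio to 1.28. The size of the hepatocyte difference thus depended on the setting. Its direction was kept in 10 of 11 alternatives, but not after thinning, which set every cell to the same depth.

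Stellate-gated cells, the vitamin A storing pericytes of the sinusoid, held Cxcl1 at 15.1 CPM in the library labelled knockout and 14.6 CPM in the library labelled control (log2 ratio 0.05, -0.39 to 0.48). Endothelial-gated cells held it at 6.29 CPM in the library labelled knockout and 7.27 CPM in the library labelled control (log2 ratio -0.21, -0.53 to 0.12). Both intervals include 0, and the values moved with the setting: stellate Cxcl1 to -0.58 after thinning and -0.47 in cells with no myeloid marker on, and endothelial Cxcl1 to -0.69 in cells with no myeloid marker on. Unlike Cxcl2, endothelial Cxcl1 was as high in the cells with no myeloid marker on, at 5.6 CPM (3.90 to 7.78) in the library labelled knockout and 9.01 CPM (6.73 to 11.8) in the library labelled control, while B cells held 2.69 CPM (0.554 to 7.85) and 2.09 CPM (0.253 to 7.56) and T cells 0 counts in both libraries. The intervals of endothelial and B cells overlap in both libraries. Mesothelial-gated cells, which line the liver capsule, held 50.0 CPM in 19 cells of the library labelled knockout and 73.2 CPM in 57 cells of the library labelled control. Single cells held 14 of the 18 and 42 of the 73 counts there, and the log2 ratio of -0.55 became 0.57 with the stricter gate, -1.76 with Leiden clusters and -2.32 after thinning. Cholangiocyte-gated cells of the bile ducts held 49.1 CPM in 26 cells of the library labelled knockout, and the library labelled control had 1 such cell.

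Cxcl1 in Kupffer-gated cells was at 2.80 CPM (2.22 to 3.48) in the library labelled knockout and 7.91 CPM (6.65 to 9.33) in the library labelled control, a log2 ratio of -1.50 (-1.91 to -1.09). It was lower in the library labelled knockout under all 12 alternatives, between -1.94 and -1.34, including the cells without another myeloid marker in which Cxcl2 turned the other way. The counts were few, 80 in 46 cells of the library labelled knockout and 139 in 53 cells of the library labelled control, where 1 cell held 25. In the cells without another myeloid marker they were 17 in 6 cells and 35 in 7 cells. B cells held Cxcl1 at 2.69 CPM (0.554 to 7.85) and 2.09 CPM (0.253 to 7.56), and these intervals overlap those of Kupffer-gated cells in both libraries. Kupffer-gated cells with a count were 2.92% (2.15 to 3.88%) in the library labelled knockout and 4.34% (3.27 to 5.64%) in the library labelled control. In the other macrophages the order was the reverse, 75.4 CPM from 16 counts in 2 cells of the library labelled knockout and 16.8 CPM from 25 counts in 10 cells of the library labelled control.

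Cxcl3 was found in very few cells, and most of its counts were in the other macrophage gate. The other macrophage gate held 23 of its 38 counts in the library labelled knockout, all in 1 cell, and 76 of its 118 counts in the library labelled control, in 4 cells of which 1 held 62. Ungated cells held 12 counts in the library labelled knockout and 22 in the library labelled control, and endothelial-gated cells 2 and 7. Kupffer-gated cells held 0 counts in the library labelled knockout and 5 in the library labelled control, neutrophils 1 and 6, and T cells 0 and 2. Stellate, mesothelial and hepatocyte-gated cells held 0 in both libraries. With so few cells, no level of Cxcl3 can be compared between the libraries beyond these counts.

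In macrophages, cells with one ligand often held another. Of the Kupffer-gated cells with a Cxcl1 count, 50.0% also had Cxcl2 in the library labelled knockout and 52.8% in the library labelled control, against 13.9% and 19.3% of the Kupffer-gated cells without Cxcl1. In the other macrophages, all 2 and all 10 cells with Cxcl1 also had Cxcl2 in the libraries labelled knockout and control. All 5 other macrophages with Cxcl3 were among the cells with Cxcl2. Outside macrophages these percentages were lower, and so were those of cells without Cxcl1. Of endothelial cells with Cxcl1, 4.72% also had Cxcl2 in the library labelled knockout and 13.3% in the library labelled control. Among endothelial cells without Cxcl1 the values were 0.772% and 6.61%. For stellate cells they were 6.67% and 23.3% with Cxcl1, against 0.994% and 7.87% without. For hepatocytes they were 6.06% and 2.56% with Cxcl1, against 0% and 3.77% without. Cells with a chemokine count were also deeper: Kupffer-gated cells with Cxcl2 had a median of 21116.5 counts in the library labelled knockout and 17143.5 in the library labelled control, against 16890 and 11592 in those without. The part of depth in the co-detection was not tested.

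Within Kupffer-gated cells, those with a Cxcl2 count carried more of other inflammatory transcripts as CPM, which adjusts for depth. Tnf was at 27.8 CPM in cells with Cxcl2 and 9.79 CPM in cells without it in the library labelled knockout (log2 ratio 1.51, 1.20 to 1.81), and at 19.0 and 8.37 CPM in the library labelled control (1.18, 0.76 to 1.6). Tnfaip3, the NF-kB feedback inhibitor A20, had a log2 ratio of 0.85 in the library labelled knockout and 0.73 in the library labelled control. Ccl3 and Ccl4, which draw monocytes and neutrophils, had log2 ratios of 0.65 and 0.90 in the library labelled knockout and 0.96 and 0.97 in the library labelled control. Il1b had 0.78 and 0.99, and Cxcl1 had 2.84 and 1.73. The immediate early genes Jun (0.06 and 0.09) and Egr1 (-0.01 and 0.48) were closer to even. S100a8, a neutrophil marker, was also higher beside Cxcl2, with log2 ratios of 1.05 in the library labelled knockout and 1.08 in the library labelled control, and its part in these differences was not tested.

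Cxcr2, the receptor, was highest in neutrophils. Neutrophil-gated cells held 1468 CPM (1401 to 1538) in the library labelled knockout and 1410 CPM (1239 to 1599) in the library labelled control, a log2 ratio of 0.06 (-0.14 to 0.26). A count was present in 159 of 180 neutrophils (88.3%) in the library labelled knockout and 29 of 34 (85.3%) in the library labelled control, or 81.1% and 79.4% after thinning. Per cell, the median was 1496 CPM in the library labelled knockout and 1326 CPM in the library labelled control, with single cells ranging up to 8877 and 4622 CPM and down to 0 in both. The cells of the libraries overlapped, and scaling by TMM moved the log2 ratio to 0.27 while Leiden clusters moved it to -0.16.

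The share of neutrophils, in contrast, differed between the libraries. Neutrophil-gated cells were 180 of 8296 kept cells (2.17%, 1.87 to 2.51%) in the library labelled knockout and 34 of 7492 (0.454%, 0.314 to 0.634%) in the library labelled control, 4.78 times the share. The ratio of shares lay between 4.49 and 5.32 under 6 alternatives of filter, doublets, gate and clustering. All 8 markers of the gate were detected in both libraries, among them S100a8 at 50215 CPM in the library labelled knockout and 42306 CPM in the library labelled control, and Ly6g at 1271 and 919 CPM. With neutrophils left out, Cxcr2 over the remaining cells was at 3.26 CPM in the library labelled knockout and 3.32 CPM in the library labelled control. The 1.66 log2 difference in Cxcr2 over all cells was thus not present outside the neutrophil gate. Cxcl2 over the same remaining cells was at 25.8 CPM in the library labelled knockout and 60.5 CPM in the library labelled control.

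**Figure D4:**
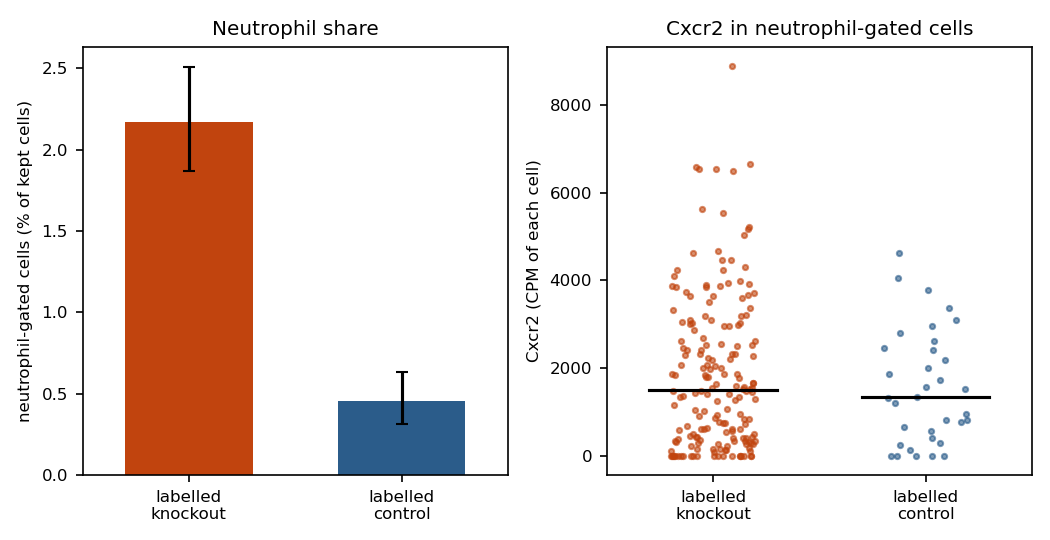
Left, neutrophil-gated cells as a share of kept cells (%, bars from 0, with exact binomial 95% intervals); right, Cxcr2 CPM of each neutrophil-gated cell with the median as a black line; the library labelled knockout is on the left of each panel. The share is 2.17% in the library labelled knockout and 0.454% in the library labelled control, while the median Cxcr2 levels are 1496 and 1326 CPM.

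Outside neutrophils, Cxcr2 was highest in the few basophils or mast cells, gated on Mcpt8, Cpa3, Ms4a2, Fcer1a and Cd200r3. In the library labelled knockout 6 of 8 such cells held 24 counts, or 405 CPM (260 to 603), and in the library labelled control 5 of 7 held 11 counts, or 255 CPM (127 to 456). The 8 neutrophil markers summed to 338 CPM in these cells of the library labelled knockout and to 0 in those of the library labelled control. Granulocyte precursors, gated on Mpo, Elane, Prtn3, Ctsg and Ms4a3, came next. These held 17 CPM in 74 cells of the library labelled knockout and 52.4 CPM in 25 cells of the library labelled control (log2 ratio -1.63, -2.44 to -0.78, from 34 and 22 counts). The same gate held S100a8 at 1996 CPM in the library labelled knockout and 794 CPM in the library labelled control. Kupffer, endothelial, monocyte and B gates held between 0.896 and 2.09 CPM in both libraries, and T cells held 0 counts in both. T and B cells are not known for this receptor, and levels near theirs are read as background. Of the Cxcr2 counts outside the neutrophil gate, ungated cells held 187 of 347 in the library labelled knockout and 135 of 272 in the library labelled control, of which 61 and 24 were in cells that scored highest for neutrophil markers.

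The other receptors and integrins by which neutrophils follow attractants were also nearly even per neutrophil. None of the 12 measured genes, among them Fpr2 (a formyl peptide receptor, 1453 CPM in the library labelled knockout and 1434 CPM in the library labelled control) and Itgam (the integrin CD11b, 1489 and 1133 CPM), was 1.5-fold apart, with a median log2 ratio of 0.01. In this small gate 20.4% of 6071 measured genes were at least 1.5-fold higher in the library labelled knockout and 17.8% at least 1.5-fold lower. One of the 12, Csf3r, was itself a gate marker. All 5 measured cytokine genes (Il1a, Il1b, Tnf, Ccl3 and Ccl4) were at least 1.5-fold lower in neutrophils of the library labelled knockout, but in the library labelled control the 1 Cxcl2-rich cell held all 9 Il1a, 38 of 54 Il1b and 25 of 31 Tnf counts. Without the highest Cxcl2 cell of each library, Tnf was at 33.7 CPM in the library labelled knockout and 35.5 CPM in the library labelled control, and Il1b at 162 and 94.7 CPM.

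In Kupffer cells most NF-kB response genes were higher in the library labelled knockout, while Cxcl1 was lower there. Of 13 measured NF-kB response genes, 8 were at least 1.5-fold higher in the library labelled knockout and none lower, with a median log2 ratio of 0.76, while over all 8944 measured genes 3.58% were higher, 7.47% were lower and the median was 0.00. Ier3 was at 32.9 CPM in the library labelled knockout and 12.9 CPM in the library labelled control, Nfkbiz at 156 and 66.8 CPM, Tnfaip3 at 116 and 53.6 CPM and Zfp36, which destabilises cytokine mRNA, at 1616 and 857 CPM. Of 5 measured cytokine genes, Il1b (138 CPM in the library labelled knockout and 31.6 CPM in the library labelled control) and Il1a (134 and 68.4 CPM) were higher, Ccl4 (58.5 and 95.3 CPM) was lower, and Tnf and Ccl3 differed by less than 1.5-fold. Cxcl1 and Cxcl2 lay on the other side, at log2 ratios of -1.50 and -0.60, the second of which turned with the bounds of the gate as given above.

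**Figure D5:**
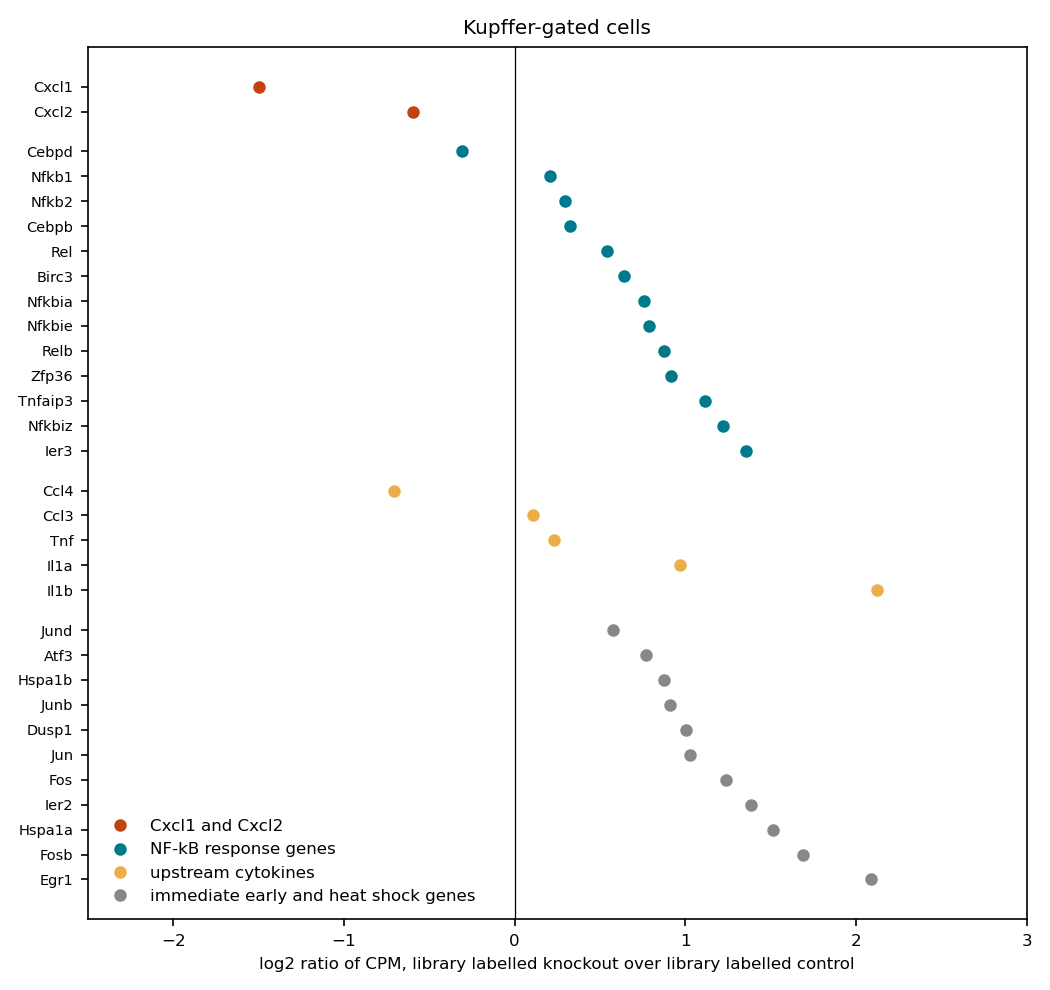
Log2 ratio of CPM in Kupffer-gated cells, library labelled knockout over library labelled control, for Cxcl1 and Cxcl2 and for the measured genes of 3 lists; each point is 1 gene and values right of 0 are higher in the library labelled knockout. Cxcl1 and Cxcl2 lie left of 0 (Cxcl2 turned with Leiden clusters and in cells with no other myeloid marker), and 8 of 13 NF-kB response genes and 10 of 11 immediate early and heat shock genes are at least 1.5-fold higher.

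The immediate early and heat shock genes, which are known to rise while tissue is dissociated, were higher in the same cells. Of 11 in Kupffer-gated cells 10 were at least 1.5-fold higher in the library labelled knockout (median log2 ratio 1.03), among them Egr1 at 581 CPM in the library labelled knockout and 137 CPM in the library labelled control, and Fosb at 509 and 158 CPM. In endothelial-gated cells 6 of 11 were higher and none lower (median 0.78), against 5.71% of 9297 measured genes higher and 14.2% lower. In stellate-gated cells 8 of 11 were higher, against 7.59% of all 9570 measured genes. The part of dissociation in the NF-kB and interleukin-1 differences was not tested.

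Endothelial adhesion molecules that catch neutrophils were even or lower in the library labelled knockout, in a gate where the share of all measured genes past the same fold was 5.71% upward and 14.2% downward. Sele (E-selectin) was at 2.83 CPM in the library labelled knockout and 10.7 CPM in the library labelled control, Selp (P-selectin) at 39.3 and 100.2 CPM and Vcam1 at 159 and 307 CPM, and the other 3 of 6, Icam1, Icam2 and Pecam1, were within 1.5-fold. All 10 measured leukocyte attractant receptors and integrins were lower in the same gate, among them Fpr1 at 5.43 CPM in the library labelled knockout and 31.8 CPM in the library labelled control, and the summed myeloid markers given above were also lower. The mix of endothelial cells also differed between the libraries. Among the Leiden clusters named endothelial, 1 held 2312 cells of the library labelled knockout and 105 of the library labelled control, and another held 602 and 1149. The part of this mix in the values of the endothelial gate was not tested. In endothelial-gated cells 2 of 13 NF-kB response genes were higher (Ier3 and Zfp36) and 1 was lower (Cebpb). In monocytes 3 of 13 were lower (Nfkbie, Tnfaip3 and Ier3) and none higher, where 10.5% of 8804 measured genes were lower, and all 3 measured cytokine genes (Il1b, Ccl3 and Ccl4) were lower. With at least 50 CPM required, 0 of 8 monocyte NF-kB response genes were lower (median -0.10).

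The remaining CXCR2 ligands added little. Cxcl5 was highest in mesothelial-gated cells, at 16.7 CPM (6 counts) in the library labelled knockout and 45.1 CPM (45 counts) in the library labelled control. Ppbp, a platelet-derived ligand, was highest in the other macrophages, at 9.43 CPM (2 counts) and 24.2 CPM (36 counts) in the libraries labelled knockout and control, and it was at 4.2 and 1.25 CPM in Kupffer-gated cells. Ackr1, the endothelial receptor that binds and transports these chemokines without signalling, was at 25.6 CPM in endothelial-gated cells of the library labelled knockout and 15.5 CPM in those of the library labelled control. Cxcl15 had at most 1 count, and Cxcr1 at most 3, in the endothelial, Kupffer, monocyte, other macrophage, neutrophil, stellate and mesothelial gates of either library.

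Across 32 values (16 cell types in both libraries), the genes whose log2(CPM + 1) was most like that of each gene were sorted by Pearson's r over 18662 genes, as a description in which cell types of 1 library share their depth and free RNA. Cxcl2 was most like C5ar1 (the receptor for complement C5a, r = 0.93), Il1rn (the interleukin-1 receptor antagonist, r = 0.92) and Fpr2 (r = 0.89), all myeloid genes. Cxcl1 was most like Rnase4 (r = 0.85), followed by S100a1, Cmbl, Mt2 and Clu. Cxcl3 was most like Fcrls (r = 0.88) and Slc7a11 (r = 0.85), and Cxcr2 like Il36g (r = 0.96) and Itgb2l (r = 0.95). Cxcl2 and Cxcl3 had r = 0.72 with each other, whereas Cxcl1 and Cxcl2 had r = 0.20. Single cells set some of these values. In the other macrophages 1 cell held all 23 Cxcl3 counts of the library labelled knockout, and 1 held 62 of 76 in the library labelled control. For Cxcl2, 1 neutrophil held 314 of 328 counts in the library labelled control. The r values of Cxcl3 in particular describe very few cells.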

How the data were processed

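Each genotype label had 1 library, made with the BD Rhapsody whole transcriptome kit. The authors deposited raw counts, whole numbers for every pair of gene and cell barcode. GRCm39 was the build, per the submitters' processing notes. How reads were aligned, counted and collapsed by molecular identifier, and how cells were called, is not given in the sources used here. If identifiers were not collapsed, counting intervals are too narrow. Groups follow the genotype labels.

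A barcode was kept if it had 300 genes, 500 counts and no more than 25% mitochondrial counts. Scrublet in Scanpy 1.11.5 marked 0.0114% and 0.0126% of cells by its automatic threshold in the libraries labelled knockout and control, so cells at or above the score bounding the top 5% were removed instead, ties included (503 and 425 cells). A marker was on at 2 or more counts and at least 1 count per 10000; a cell took the type with the largest share of its markers on, given at least 3 on and a lead of 0.2 over the next type. Counts were summed per gate as CPM of the gate's total, with exact Poisson, conditional and Clopper-Pearson intervals in SciPy 1.17.1 at 95%. Shares of cells were also taken after thinning to 3000 counts per cell. TMM factors came from edgeR 4.0.16, used for scaling only. A list gene was measured with 20 counts in all and 10 CPM in 1 library, and was called by a fold of 1.5 alone. Named list genes were the up to 4 largest past that fold, or else the 2 of highest CPM; Tnf, Ccl3 and Jun in Kupffer cells, Il1b in neutrophils, and the within-gate comparisons by Cxcl2 were named after their values were seen. A ratio with a count of 0 on one side used a floor of 3 counts.

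The ratio code was tested on simulated counts. Alternatives were stricter and looser filters, doublets kept, stricter and looser gates, Leiden clusters built without the 4 genes, other scalings, per-cell means, thinning, and, chosen after seeing the data, leaving out the highest cell or cells with another myeloid type's marker. Genes, lists and markers were chosen with earlier results of these data known.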

Additional observations from a re-analysis of the deposited data

Results flagged for a closer look

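Cxcl1 differed between the libraries in opposite directions across cell types. Its log2 ratio, library labelled knockout over library labelled control, was -1.5 in Kupffer-gated cells, 2.16 in the other macrophages and 0.62 in hepatocytes. The difference between the types was not tested, the value of the other macrophages rests on 16 counts in 2 cells of the library labelled knockout, and that of hepatocytes turned to -0.049 after thinning.

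Cxcl2 was also present in barcodes that the cell filter set aside. It stood there at 2.95 CPM (1201 barcodes) in the library labelled knockout and 8.5 CPM (2083 barcodes) in the library labelled control, against 26.6 and 64.4 CPM in kept cells. Both levels lie within the counting intervals of B cells in the same libraries.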

How the results depend on the processing

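No paired analysis was possible because each label had 1 library and the result comes from no test. Cxcl2 in Kupffer-gated cells was -0.26 with a stricter gate, 0.069 with Leiden clusters, -0.40 without the highest cell of each library and 0.51 without cells carrying another myeloid marker; its direction turned with the last and with Leiden clusters, and the cause was not tested. In neutrophils Cxcl2 was 0.40 under the stricter filter and -0.011 without the highest cells, since the cell with 314 counts was then gone. In endothelial cells it was -2.14 (looser gate), -2.97 (Leiden), -2.93 (per-cell mean), -2.84 (thinned) and -2.70 (no myeloid marker). In monocytes it was -1.76 (looser gate), -1.17 (Leiden), -4.90 (highest cells out) and -0.94 (no other myeloid marker, a bound from 0 counts in 18 cells of the library labelled knockout). Stellate-gated cells held Cxcl2 at 4.08 CPM in the library labelled knockout, with 16 of 23 counts in 1 cell, and at 25.4 CPM in the library labelled control. The log2 ratio of -2.64 (-3.33 to -2.01) became -1.05 (stricter filter), -1.89 (looser filter), -1.07 (doublets kept) and -0.50 (looser gate). It was -3.51 when thinned and -4.20 with the highest cells out, and without myeloid markers no ratio could be given. Over all kept cells Cxcl2 was -1.11 under the stricter filter. Cxcl1 was -1.94 in Kupffer cells without another myeloid marker, and in hepatocytes 1.28 with TMM, 1.22 with median-of-ratios and -0.049 thinned. Cxcr2 in neutrophils was -0.16 (Leiden), 0.27 (TMM), 0.26 (median-of-ratios) and 0.27 (per-cell mean). The Kupffer share of Cxcl2 counts in the library labelled knockout was 44.7% with doublets kept, 40.8% and 61.0% with a stricter and a looser gate and 35.0% with Leiden clusters; in the library labelled control it was 14.9%, 34.1% and 6.26% for the gates and Leiden clusters. The neutrophil share of Cxcr2 counts in the library labelled knockout was 76.1% with doublets kept, 78.8% and 86.6% with the gates and 88.0% with Leiden clusters; in the library labelled control it was 42.5% with doublets kept and 51.9% with the looser gate. With at least 50 CPM required, 5 of 9 NF-kB response genes were higher in Kupffer cells. Scaling by TMM moved all genes by 0.15 in endothelial, 0.22 in neutrophil and 0.66 in hepatocyte gates. Cxcl3 counts were few in every gate, and in small gates 0 counts leave wide limits. In large gates the limits were low. The upper limit from 0 counts was 0.129 CPM in Kupffer-gated cells of the library labelled knockout. In stellate-gated cells it was 0.655 CPM in the library labelled knockout and 0.533 CPM in the library labelled control. Depth limits Cxcl1 in neutrophils of the library labelled control, where 0 counts in 34 cells say little.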

Other observations

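In monocytes the heat shock transcript Hspa1b was at 108 CPM (169 counts) in the library labelled knockout and 1.83 CPM (7 counts) in the library labelled control, and Hspa1a at 76.8 and 3.93 CPM. Hspa1b was likewise at 102 and 2.38 CPM in granulocyte precursors and 75.6 and 1.41 CPM in conventional dendritic cells. In monocytes 4 of the 11 genes of its list were higher (median log2 ratio 0.18), where 13.4% of 8804 measured genes were higher.

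Pf4, a platelet-type CXC chemokine without the ELR sequence, was at 34.9 CPM in Kupffer-gated cells of the library labelled knockout and 118 CPM in those of the library labelled control, and at 471 and 415 CPM in the other macrophages.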
